A study of Homo sapiens with 8 samples.

Results

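Untreated NCI-H1944 (H1944 below) and untreated NCI-H647 (H647 below) were compared gene by gene. NCI-H1944 is an established human lung adenocarcinoma line and NCI-H647 an established human adenosquamous lung carcinoma line. Both were labelled WT and grown in RPMI medium with 10% fetal bovine serum, antibiotics and a mycoplasma prophylactic. The study treated each line with BAY-1217389, which inhibits MPS1, a kinase of the spindle checkpoint, or with DMSO, its solvent, for 48 h, followed by 24 h without drug. The 4 DMSO libraries, 2 from each line, of the 8 in the series were used here. Protein-coding genes were matched between the 2 deposited count tables by symbol, and histone genes were left out because the library kits differ. This left 18976 genes, of which 13617 passed the filter on low counts and were tested.

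Lung cancer lines differ in how far they hold to an epithelial state, with keratins and cadherin junctions, or have moved toward a mesenchymal state with vimentin, fibronectin and N-cadherin. They also differ in the p53 pathway, in which the factor p53 switches on the cyclin-dependent kinase inhibitor CDKN1A, its own ligase MDM2 and pro-apoptotic genes. Cells detect stray RNA through RIG-I, MDA5 and TLR3, and stray DNA through cGAS and STING. Both routes reach the kinase TBK1 and the factor IRF3, which switch on interferons, interferon-stimulated genes and chemokines. The series title names RNA sensing, and the comparison gives the levels of these genes before any inhibitor.

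Deposited totals were 39332931 and 38904473 counts in the H1944 libraries and 19550859 and 17243487 in the H647 libraries, so low genes were less precise in H647. Replicates of a line correlated at r = 0.994 in both lines (Pearson, log2 CPM, counts scaled to one library size, across genes, which are not independent), and the line means at 0.702. Whether the 2 libraries of a line come from separate cultures is not in the labels, so p-values cover the spread between libraries only, and that spread may be technical. The H1944 libraries were made from poly(A) RNA and the H647 libraries after depletion of ribosomal RNA, with another kit and a conversion for another sequencer, and the tables were counted on different annotations. Line, kit and counting cannot be told apart. Properties of the transcripts moved with the difference. The median log2 difference (H1944 minus H647) rose from -0.62 in the 2721 genes with the lowest GC content (30.2% to 40.8%) to 0.96 in the 2721 genes with the highest (58.2% to 74.7%). In the lowest group 5% of genes were at least 4-fold higher in H1944 and 15.6% in H647, and in the highest group 27.1% and 7.42%. The median also fell with exonic length, from 0.23 in the 2726 shortest genes to -0.37 in the 2721 longest. Of the 229 tested genes given with values, 89 moved by over 1.5-fold when differences were centred on GC content, that is, taken relative to genes of like GC content. Of these 229 genes, 18 fell under 4-fold and 2 rose past it, and their centred differences are given beside them. For most other genes only the uncentred difference is given, and it may hold a part that goes with GC content.

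The lines differed in most genes. Of the 13617 genes, 88.2% were called: 6136 (45.1%) were higher in H1944 and 5881 (43.2%) higher in H647 at a Benjamini-Hochberg adjusted p under 0.05 by edgeR's quasi-likelihood F test. A size rule was therefore used for description: an adjusted p under 0.05 and a fitted difference of at least 4-fold, 2 on the log2 scale. This rule was met by 1909 genes (14.0%) in H1944 and 1614 (11.9%) in H647, and these shares are the background for every list below. A gene at 0 in one line passed the low-count filter only through the other line. In lists with many low genes the shares among tested members are therefore partly set by the filter. The median difference over all genes was 0.04, with quartiles of -0.96 and 1.08. For 93.9% of genes both libraries of one line were above both of the other. Values below are CPM per library, in replicate order, with TMM-scaled library sizes. Differences are log2 values, H1944 minus H647, ± SE, with n = 2 libraries a line. A gene at 0 counts in a line is given a lower bound of its fold against 3 counts over the 2 libraries, and a gene at 1 to 3 counts is given the ratio with its counting interval, which covers counting error only.

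**Figure D1:**
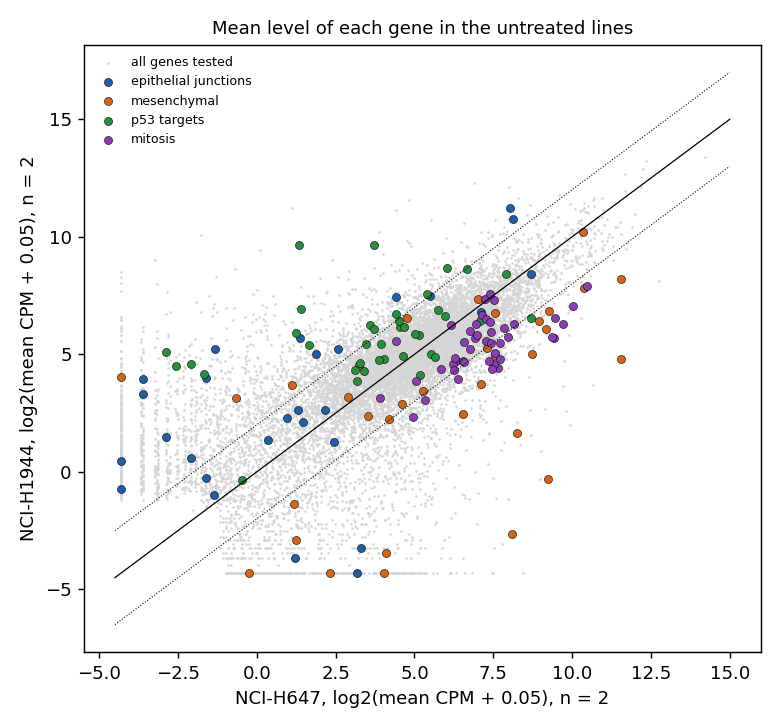
Mean level of each gene tested in H647 (x) and H1944 (y), as log2(mean CPM + 0.05) over 2 libraries. The solid line marks equal levels and the dotted lines 4-fold differences. Coloured points are members of 4 lists: mesenchymal and mitosis genes lie mostly below the solid line, and epithelial and p53 target genes mostly above it.

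The genes furthest apart were silent in one line. CHL1, a neural cell adhesion molecule, had 13488 and 12846 counts in H1944 and 0 in both H647 libraries, at least 4009.8-fold higher. IGFBP1, a secreted binding protein for insulin-like growth factors, was at 311 and 309.7 CPM in H1944 and 0 in H647 (at least 3401-fold). NOS1, the neuronal nitric oxide synthase, was at 271 and 259 CPM and 0 (at least 2907-fold), and DACT2, a Dishevelled-binding protein of WNT signalling, at 210.2 and 207 CPM and 0 (at least 2286-fold). FZD10, a WNT receptor, the scaffold USH1C and the glucuronosyltransferase UGT2B4 followed, at 98.2 and 96.6, 93.9 and 92.6 and 90.7 and 87.1 CPM in H1944, all with 0 counts in H647.

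On the other side, CXCL6, a neutrophil chemokine, had 0 counts in H1944 and 6081 and 5249 in H647, at least 8268-fold higher. FLI1, an ETS factor of blood and endothelial cells, had 0 counts in H1944 and 181 and 176 CPM in H647 (at least 4284-fold). The cadherin CDH6 was at 0 and 115 and 113 CPM (at least 2734-fold), and endoglin (ENG), a co-receptor for TGF-beta ligands, at 0 and 99.7 and 96.02 CPM (at least 2349.7-fold). FOXF1, a forkhead factor of lung mesenchyme, had 0 counts in H1944 and 47.96 and 47.6 CPM in H647 (at least 1146-fold). The growth factor IGF2 was at 0 in H1944 and 176 and 173 CPM in H647, but it overlaps a readthrough gene and its counts are uncertain. In all, 87 genes had a mean of at least 10 CPM in H1944 with at most 3 counts in H647, and 78 the reverse. Of these, 13 (14.9%) and 19 (24.4%) overlap another protein-coding gene, against 35.8% of all genes tested. Several genes given below at 0 or few counts in a line also overlap one, so their counts are uncertain. NKX2-1, TJP3, CRB3, DDC, AIM2, CA9 and GSTM1 are among them.

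The 4 genes named as markers of the pair separated the libraries without overlap, as did 93.9% of all genes tested. CDKN1A (chromosome 6, 36676460 to 36687337), the p21 inhibitor of cyclin-dependent kinases, was at 808 and 806 CPM in H1944 and 12.2 and 13.9 in H647, a difference of 5.96 ± 0.05 and 62.1-fold (edgeR adjusted p = 3.6e-24). GDF15 (chromosome 19, 18374731 to 18389176), a stress-secreted TGF-beta family cytokine, was at 796 and 829.6 CPM in H1944 and 3.16 and 1.74 in H647, a difference of 8.35 ± 0.07 (edgeR adjusted p = 2.2e-23). LCN2 (chromosome 9, 128149071 to 128153453), the iron-sequestering antimicrobial protein lipocalin-2, had 731 and 723 counts in H1944 and 1 and 0 in H647, a ratio of 664 (95% counting interval 119 to 26252). IL7R (chromosome 5, 35852695 to 35879603), the interleukin-7 receptor of lymphoid cells, had 0 counts in both H1944 libraries and 1192 and 1122 in H647, at least 1689-fold higher in H647. Coordinates are those of the H647 table, whose build is GRCh38 per the submitters' processing notes.

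Most p53 targets were called higher in H1944, 32 of 38, with 5 called higher in H647, against 45.1% and 43.2% of all genes. All 38 members were tested, and 14 (36.8%) were past the 4-fold rule in H1944 and 1 (2.63%) in H647, with a median of 1.503. EDA2R, a death-domain receptor, had 1229 and 1233 counts in H1944 and 3 and 0 in H647, a ratio of 375 (95% counting interval 128 to 1819). PHLDA3, an inhibitor of AKT, was at 119.5 and 122 CPM in H1944 and 2.93 and 2.26 in H647, and FDXR, ferredoxin reductase, at 63.3 and 57.8 CPM in H1944 and 2.01 and 2.65 in H647. Among the apoptosis genes, BBC3 (PUMA) was at 41.8 and 41.2 CPM in H1944 and 3.57 and 2.58 in H647 (centred 1.87), BAX at 108 and 105 CPM in H1944 and 20.9 and 21.95 in H647 (centred 1.59), and the TRAIL receptor TNFRSF10B at 406 and 408 CPM in H1944 and 64.2 and 66.4 in H647. The antiproliferative gene BTG2 was at 23.5 and 21.5 CPM in H1944 and had 3 and 1 counts in H647. MDM2 was 3.86-fold higher in H1944 (395 and 388 CPM in H1944 and 104 and 98.7 in H647, difference 1.95 ± 0.03), short of 4-fold. PLK2, a polo-like kinase, was the member past the rule the other way, at 93.7 and 95.1 CPM in H1944 and 407 and 414 in H647 (-2.12 ± 0.03). After centring on GC content the counts were 14 and 1, but not of the same genes: BBC3 and BAX fell under 4-fold and MDM2 (2.29) rose past it.

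**Figure D2:**
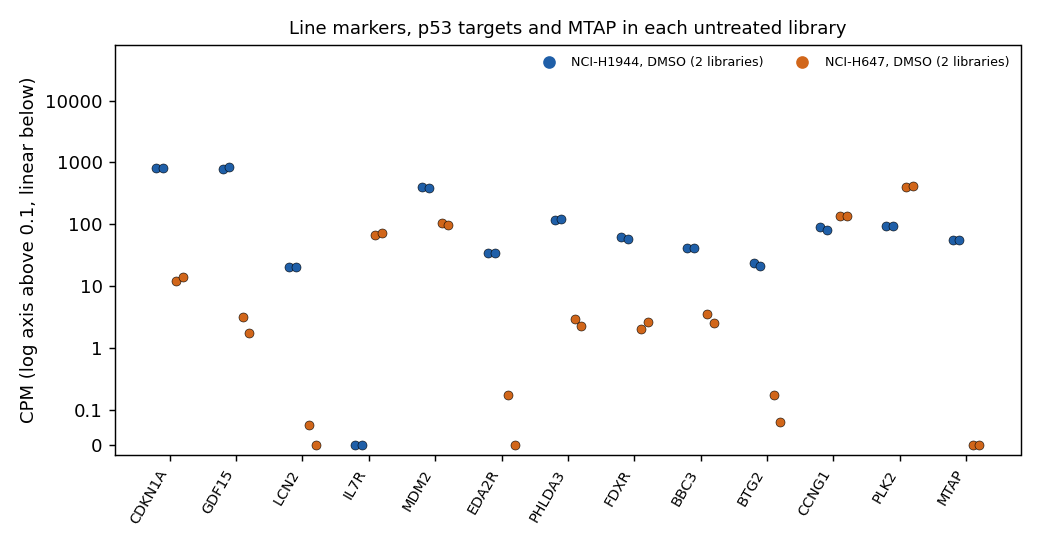
CPM of the 4 markers, p53 targets, PLK2 and MTAP in each untreated library (y, log axis above 0.1 and linear below). Each dot is 1 library, blue for H1944 and orange for H647. CDKN1A and GDF15 lie at 796 to 829.6 CPM in H1944 and 1.74 to 13.9 in H647, IL7R is at 0 in H1944, and MTAP is at 0 in H647.

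The epithelial genes were mostly higher in H1944 and the mesenchymal genes mostly higher in H647, with exceptions on both sides. Of 28 tested epithelial junction genes, 14 were past 4-fold in H1944 and 3 (10.7%) in H647 (11 and 3 after centring on GC content), with a median of 2.29. E-cadherin (CDH1) was at 37.6 and 36.4 CPM in H1944 and 0.172 and 0.517 in H647, a difference of 6.77 ± 0.18 and 109-fold. The simple-epithelium keratins KRT8 and KRT18 were at 2396 and 2409 CPM in H1944 and 268 and 260.2 in H647 and at 1725 and 1728 CPM in H1944 and 291 and 273 in H647 (KRT18 centred 1.98), and the desmosome linker desmoplakin (DSP) at 177 and 175 CPM in H1944 and 21.7 and 20.7 in H647. The tight-junction gene TJP3 had 567 and 558 counts in H1944 and 0 and 1 in H647, a ratio of 514 (95% counting interval 92.05 to 20316), and the polarity gene CRB3 had 364 and 352 and 0 and 1. KRT19, another simple-epithelium keratin, went the other way, with 0 counts in H1944 and 165 and 131 in H647, at least 216-fold higher. The splicing regulator ESRP2 had 1 and 1 counts in H1944 and 42 and 32 in H647. The epithelial surface marker EPCAM was low in both lines, at 2.08 and 2.71 CPM in H1944 and 5.41 and 5.42 in H647 (-1.18 ± 0.21). KRT7 was high in both, at 337 and 339.7 CPM in H1944 and 415 and 411 in H647, a difference of -0.29 ± 0.03 (-1.28 after centring on GC content).

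Of 33 tested mesenchymal genes, 20 (60.6%) were past 4-fold in H647 and 3 (9.09%) in H1944, with a median of -2.54 (-3.27 after centring on GC content). Vimentin (VIM), the intermediate filament of mesenchymal cells, was at 294 and 297 CPM in H1944 and 2952 and 2988 in H647, 10.1-fold higher in H647. Fibronectin (FN1) was at 26.5 and 28.6 CPM in H1944 and 2979.5 and 2959 in H647 (-6.75 ± 0.04), N-cadherin (CDH2) at 2.66 and 3.52 CPM in H1944 and 309 and 303 in H647 (-6.63 ± 0.06), and the matrix protein SPARC at 0.969 and 0.558 CPM in H1944 and 595 and 599.9 in H647 (-9.60 ± 0.07). The collagen cross-linking enzyme LOX had 8 and 0 counts in H1944 and 4727 and 4236 in H647. COL1A2, a chain of type I collagen, had 0 counts in H1944 and 268 and 262 in H647, at least 387-fold higher. ZEB1, a repressor of E-cadherin, was expressed in both, at 36.9 and 39.4 CPM in H1944 and 158 and 159.8 in H647, a difference of -2.06 ± 0.04 (centred -1.38). The 3 members past 4-fold in H1944 were the proteoglycans decorin (DCN, 17.5 and 15.6 CPM and 0 counts in H647) and lumican (LUM, 14.4 and 11.7 CPM in H1944 and 2.01 and 2.26 in H647), and the factor TWIST2 (8.44 and 8.87 CPM in H1944 and 0.575 and 0.581 in H647). The summed level of the mesenchymal list was 2579 CPM in both H1944 libraries and 12938 and 12926 in the H647 libraries.

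**Figure D3:**
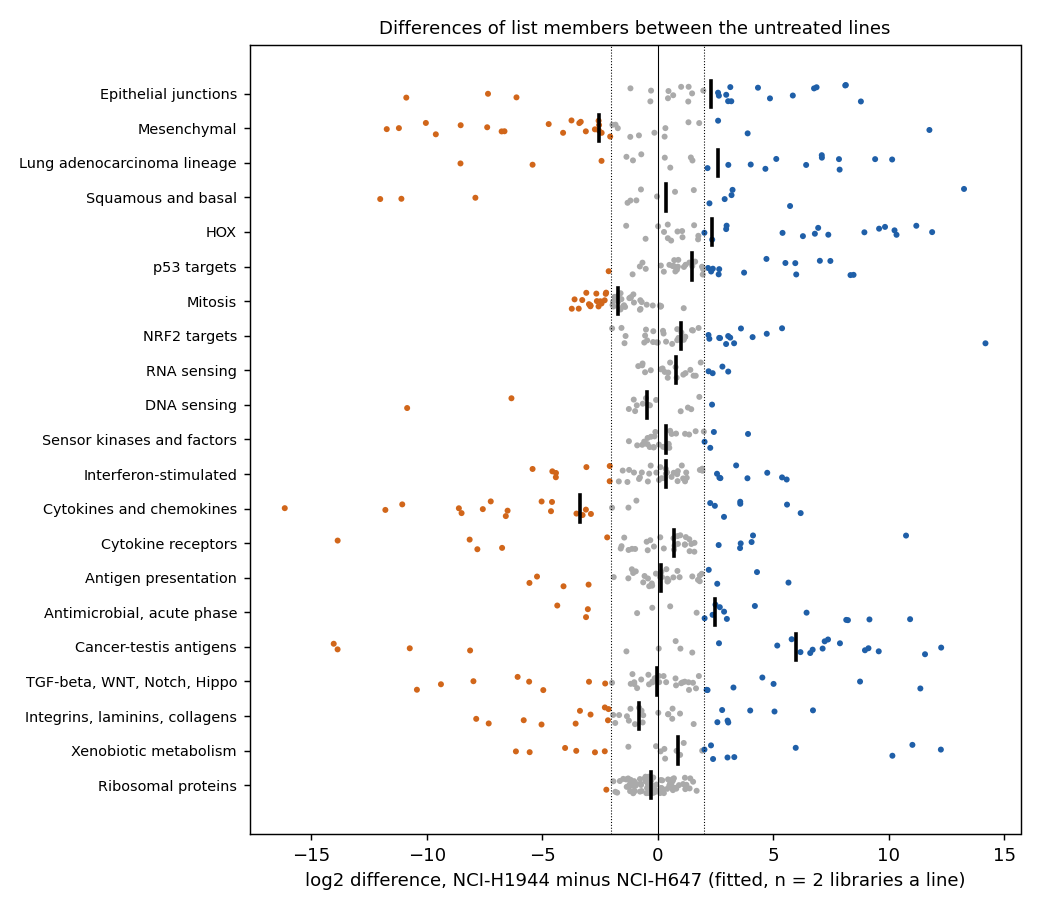
Fitted log2 difference between the untreated lines for each tested member of 21 lists (x), with the lists on the y axis. Blue dots are past the 4-fold rule in H1944, orange in H647 and grey are not. Black bars mark medians and dotted lines 4-fold. The epithelial, lung lineage, HOX, p53 and antimicrobial lists have medians from 1.503 to 2.61, and the mesenchymal, mitosis and cytokine lists from -1.71 to -3.38.

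The lung lineage factor NKX2-1 and the surfactant genes of alveolar type II cells were at 0 or low in both lines. NKX2-1 had 0 counts in H1944 and 31 and 27 in H647 (1.78 and 1.74 CPM), SFTPB had 0 counts in all 4 libraries, and SFTPC had 0 and 4 counts in H1944 and 0 in H647. SFTPD had 30 and 17 counts in H1944 and 0 in H647. The pioneer factor FOXA1 was at 36.5 and 38.3 CPM in H1944 and 26.1 and 25.2 in H647. Of 22 tested members of the lung adenocarcinoma lineage list, 12 (54.5%) were past 4-fold in H1944 and 3 (13.6%) in H647, with a median of 2.61. The liver and gut factor HNF4A had 183 and 206 counts in H1944 and 0 in H647, at least 59.2-fold higher. The epithelial ETS factor ELF3 was at 127 and 128 CPM in H1944 and 0.403 and 0.710 in H647. The adhesion protein CEACAM6 was at 403 and 391 CPM in H1944 and 0.633 and 0.517 in H647 (9.41 ± 0.08), the surface mucin MUC1 at 29.1 and 30.7 CPM in H1944 and 0.172 and 0.258 in H647, and the airway gel-forming mucin MUC5B at 141 and 145 CPM in H1944 and 3.80 and 4.39 in H647. HOPX, a homeodomain protein of alveolar type I cells, was at 10.8 and 10.9 CPM in H1944 and had 2 and 2 counts in H647. LAMP3, a lysosomal protein of alveolar type II and dendritic cells, was higher in H647, at 0.941 and 1.005 CPM in H1944 and 41.3 and 42.1 in H647, as was the goblet cell factor SPDEF at a low level (0.138 and 0.251 CPM in H1944 and 0.805 and 1.36 in H647). Of 24 secretory and gut mucin genes, 14 did not pass the filter. Among the 10 tested, 5 were past 4-fold in H1944 and 1 in H647. MUC13 was at 318 and 304 CPM in H1944 and 0.460 and 0.258 in H647, the intestinal cadherin CDH17 had 1282 and 1171 and 0 and 1 counts, and MUC16 (CA125) had 246 and 212 counts in H1944 and 0 in H647. The member higher in H647 was VSIG1, with 0 counts in H1944 and 40 and 24 in H647.

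The defining squamous markers were at 0 or low in both lines. KRT5 had 0 counts in all 4 libraries, KRT14 had 1 count in 1 H647 library, and TP63, the basal cell factor, was at 1.99 and 2.32 CPM in H1944 and 1.96 and 2.45 in H647, a difference of -0.03 ± 0.26 (edgeR adjusted p = 0.92) whose sign changes with the scaling. SOX2 had 0 counts in H1944 and 19 and 18 in H647. Of the 16 members tested, 6 (37.5%) were past 4-fold in H1944 and 3 (18.8%) in H647. TRIM29, a basal-cell ubiquitin ligase, had 1710 and 1654 counts in H1944 and 0 in H647, at least 512-fold higher. The p53 and p63 target PERP, a desmosome protein, was at 659 and 669 CPM in H1944 and 74.3 and 70.5 in H647, and KRT17, whose counts are uncertain beside its near-identical relatives, at 177 and 185 CPM in H1944 and 3.68 and 3.10 in H647. The basal factor BNC1 and the desmosomal cadherin DSC3 went the other way, with 0 counts in H1944 and 354 and 293 and 181 and 161 in H647.

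HOX genes, which encode position along the body axis, differed in 1 direction. Of 29 tested, 16 (55.2%) were past 4-fold in H1944 and 0 in H647 (1 was called higher in H647 at any size), with a median of 2.36. The posterior members HOXA10, HOXC9, HOXC13, HOXC11 and HOXD13 had 0 counts in H647 and 17.9 and 18.03, 11.4 and 10.9, 5.70 and 5.92, 3.90 and 4.83 and 4.21 and 3.10 CPM in H1944. HOXC10 had 1709 and 1567 counts in H1944 and 1 and 0 in H647, a ratio of 1496 (95% counting interval 268 to 59126). HOXA10, HOXC9 and HOXC10 overlap other protein-coding genes in the H647 annotation, so their counts are uncertain. HOXC13, HOXC11 and HOXD13 do not overlap another. In the neuroendocrine and neural list, 3 of 11 tested members were past 4-fold in H1944 and 4 in H647. The defining factors NEUROD1 and INSM1 had at most 1 count in any library. UCHL1, a neuronal ubiquitin hydrolase, was at 0.913 and 0.586 CPM in H1944 and 505 and 502 in H647 (-9.38 ± 0.07), and TUBB3, neuronal beta-tubulin, at 125 and 136 CPM in H1944 and 28.6 and 28.3 in H647 (2.20 ± 0.06, centred 1.34). The aromatic amino acid decarboxylase DDC had 134 and 130 counts in H1944 and 0 in H647, and the growth-cone gene GAP43 0 and 54 and 64.

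Most cytokines and chemokines measured were higher in H647. Of 26 tested cytokines and chemokines, 16 (61.5%) were past 4-fold in H647 and 7 (26.9%) in H1944, with a median of -3.38. The summed level of the list was 796 and 793 CPM in H1944 and 9842 and 10110 CPM in H647. The 6 tested chemokines that call in neutrophils through CXCR2 lie in 1 cluster on chromosome 4, and all 6 were past 4-fold in H647. CXCL6 was silent in H1944, as given above. CXCL1 was at 6.67 and 5.22 CPM in H1944 and 899 and 881 in H647 (-7.22 ± 0.05) and CXCL3 at 2.49 and 2.26 CPM in H1944 and 216 and 238 in H647 (-6.57 ± 0.08). CXCL8, interleukin-8, was at 7.28 and 5.33 CPM in H1944 and 575 and 565 in H647, 90.3-fold higher in H647. CXCL5 was at 281 and 279.8 CPM in H1944 and 6728 and 7027 in H647 and CXCL2 at 10.8 and 11.2 CPM in H1944 and 94.6 and 95.2 in H647, so these 2 were expressed in H1944 at the lower levels given. EPGN, an EGF-family ligand in the same region, had 0 and 6 counts in H1944 and 624 and 574 in H647, while its neighbours AREG and EREG were higher in H1944 (64.1 and 64.02 CPM in H1944 and 4.08 and 2.45 in H647, and 118 and 121 CPM in H1944 and 30.9 and 30.9 in H647, EREG centred 2.58).

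**Figure D4:**
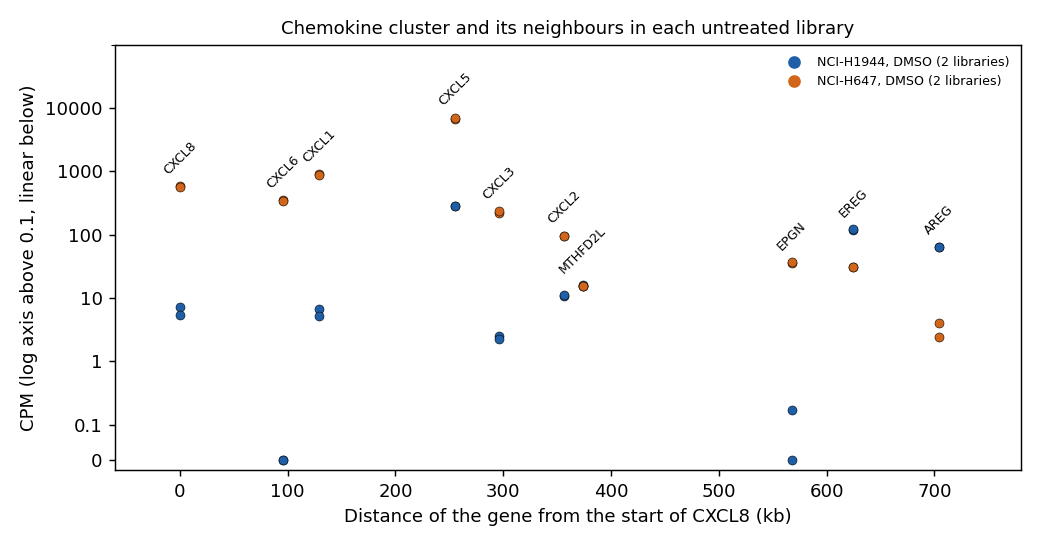
CPM in each untreated library (y, log axis above 0.1 and linear below) of the chemokine cluster and its neighbours, placed by distance in kb from the start of CXCL8 (x). Each dot is 1 library, blue for H1944 and orange for H647. The CXCL genes and EPGN lie higher in H647, and AREG and EREG lie higher in H1944.

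The promoters of the 6 chemokines are shown because the genes moved together and share an NF-kB site by letters. Each line holds the 250 bases before the RefSeq start site (GRCh38.p14), 5′ to 3′, with the letters GGAATTTCC in capitals. Both strands were searched (GGAAATTCC on the other), and the letters were chosen after the sequences were seen.
CXCL1, chr4:73869143-73869392, plus strand: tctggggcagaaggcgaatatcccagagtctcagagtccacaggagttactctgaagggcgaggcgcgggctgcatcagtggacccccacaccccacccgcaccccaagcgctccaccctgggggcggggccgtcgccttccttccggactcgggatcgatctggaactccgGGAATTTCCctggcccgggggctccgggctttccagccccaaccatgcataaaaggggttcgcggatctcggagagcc
CXCL2, chr4:74099196-74099445, minus strand: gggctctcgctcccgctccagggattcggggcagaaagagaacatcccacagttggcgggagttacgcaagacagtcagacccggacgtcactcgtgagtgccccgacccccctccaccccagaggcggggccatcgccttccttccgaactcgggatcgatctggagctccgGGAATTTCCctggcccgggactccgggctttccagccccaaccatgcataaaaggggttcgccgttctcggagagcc
CXCL3, chr4:74038690-74038939, minus strand: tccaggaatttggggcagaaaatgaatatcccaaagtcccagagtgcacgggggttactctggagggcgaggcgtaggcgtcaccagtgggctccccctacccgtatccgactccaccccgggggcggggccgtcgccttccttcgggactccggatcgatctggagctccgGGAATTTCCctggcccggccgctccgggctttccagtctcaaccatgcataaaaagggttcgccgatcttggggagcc
CXCL5, chr4:73998678-73998927, minus strand: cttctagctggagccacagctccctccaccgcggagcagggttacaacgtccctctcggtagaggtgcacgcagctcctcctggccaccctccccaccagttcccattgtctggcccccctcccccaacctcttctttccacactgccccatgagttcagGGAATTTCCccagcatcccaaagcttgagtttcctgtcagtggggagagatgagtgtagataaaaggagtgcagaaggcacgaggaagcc
CXCL6, chr4:73836428-73836677, plus strand: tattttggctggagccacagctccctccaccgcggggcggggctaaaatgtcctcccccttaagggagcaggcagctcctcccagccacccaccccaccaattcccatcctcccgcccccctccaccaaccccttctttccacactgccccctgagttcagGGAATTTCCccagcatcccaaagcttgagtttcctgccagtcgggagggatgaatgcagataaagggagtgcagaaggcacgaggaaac
CXCL8, chr4:73740319-73740568, plus strand: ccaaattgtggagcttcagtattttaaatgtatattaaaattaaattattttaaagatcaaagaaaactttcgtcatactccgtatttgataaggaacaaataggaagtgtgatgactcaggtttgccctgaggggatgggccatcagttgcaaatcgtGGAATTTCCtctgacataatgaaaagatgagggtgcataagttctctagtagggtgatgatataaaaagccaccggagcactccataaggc
All 6 hold the letters once, with the match starting 77 to 91 bases before the start site. In the 250 bases before the start sites of 11104 genes, searched in the same way, 43 (0.387%) hold these letters. Without the 6 chemokines, 37 of those genes were left, of which 3 were past 4-fold in H1944 and 8 in H647, with a median difference of -0.79. Such a match describes the letters only.

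Other cytokines followed the chemokines or opposed them. The interleukin-6 family members IL6 and IL11 were at 6.09 and 5.80 CPM in H1944 and 55.4 and 57.9 in H647 and at 44.5 and 42.1 CPM in H1944 and 500.64 and 489.8 in H647, and interleukin-1 alpha and beta (IL1A, IL1B) at 1.11 and 1.28 CPM in H1944 and 40.1 and 37.8 in H647 and at 1.08 and 1.06 CPM in H1944 and 26.2 and 24.9 in H647. The granulocyte growth factor CSF3 and the monocyte chemokine CCL2 had 0 counts in H1944 and 272 and 280 and 172 and 161 in H647. CCL20, a chemokine for CCR6, was at 0.221 and 0.726 CPM in H1944 and 93.4 and 87.6 in H647. The members higher in H1944 included the T cell chemokine CCL5, at 25.1 and 27.8 CPM in H1944 and 2.59 and 1.81 in H647, CXCL16 at 29.8 and 29.7 CPM in H1944 and 0.575 and 0.646 in H647, interleukin-18 (IL18) at 170.4 and 174 CPM in H1944 and 29.6 and 32.4 in H647 and LIF, another interleukin-6 family member, at 143 and 144 CPM in H1944 and 20.6 and 18.5 in H647. The T cell chemokine CXCL10 had 0 counts in H1944 and 1 and 2 in H647, and IFNB1, the interferon beta gene, 0 in all 4 libraries.

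Receptors for these signals were near the background. Of 37 tested, 6 (16.2%) were past 4-fold in H1944 and 5 (13.5%) in H647. Beside IL7R, IL31RA, a chain of the interleukin-31 receptor, was higher in H647, at 0.360 and 0.419 CPM in H1944 and 40.5 and 43.4 in H647. The other 3 were low: IL13RA2 and CSF1R had 0 counts in H1944 and 23 and 21 and 22 and 13 in H647, and TNFRSF1B was at 1.02 and 0.921 CPM in H1944 and 4.49 and 4.39 in H647. CSF2RA, the receptor chain for the growth factor GM-CSF, had 267 and 323 counts in H1944 and 0 in H647, at least 89.8-fold higher. The decoy receptor for interleukin-1, IL1R2, was at 3.74 and 3.85 CPM in H1944 and 0.287 and 0.129 in H647, and the atypical chemokine receptor ACKR3, which removes CXCL12, at 131 and 139 CPM in H1944 and 8.57 and 7.49 in H647. In the antimicrobial and acute-phase list, 12 of 19 tested members (63.2%) were past 4-fold in H1944 and 3 in H647, with a median of 2.50. Besides LCN2, the calprotectin chain S100A9 was at 114 and 109 CPM in H1944 and 0.287 and 0.452 in H647 (8.23 ± 0.12), the defensin DEFB1 had 345 and 322 counts in H1944 and 0 in H647, and the fibrinogen chain FGA was at 116 and 113 CPM in H1944 and 6.38 and 5.94 in H647. The protease inhibitor SLPI was at 44.4 and 49.7 CPM in H1944 and 8.28 and 8.33 in H647 and complement C3 at 500.3 and 497 CPM in H1944 and 122 and 122 in H647 (C3 centred 1.34). The 3 members past 4-fold in H647 included the acute-phase apolipoproteins SAA2 (0 and 7 counts in H1944 and 35 and 33 in H647) and SAA1 (0.498 and 0.726 CPM in H1944 and 5.52 and 4.46 in H647).

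Most RNA sensors were expressed in both lines, at levels within 4-fold. Of 23 tested RNA sensing genes, 17 were called higher in H1944 and 5 higher in H647, against 45.1% and 43.2% of all genes. Only 4 (17.4%) were past 4-fold in H1944 and 0 in H647. RIG-I (RIGI, listed as DDX58) was at 52.5 and 52.1 CPM in H1944 and 25.4 and 22.9 in H647, 2.16-fold higher in H1944 (1.11 ± 0.06). MDA5 (IFIH1), which detects long double-stranded RNA, was at 22.3 and 20.9 CPM in H1944 and 33.1 and 34.9 in H647, higher in H647 by 1.57-fold (-0.65 ± 0.07). MAVS, the mitochondrial adaptor of both, was at 161 and 153 CPM in H1944 and 89.4 and 88.7 in H647 (0.82 ± 0.04). TLR3, the endosomal sensor, was low in both, at 5.51 and 6.70 CPM in H1944 and 2.88 and 2.39 in H647 (1.21 ± 0.20), and its adaptor TICAM1 at 25.5 and 27.2 CPM in H1944 and 6.44 and 4.91 in H647 (2.20 ± 0.11, centred 1.17). PKR (EIF2AK2), which stops translation on double-stranded RNA, was higher in H647, at 135 and 134 CPM in H1944 and 236 and 244 in H647 (-0.84 ± 0.03, centred -0.21). The oligoadenylate synthetases, which activate RNase L, gave the other 3 members past 4-fold in H1944: OAS1 at 158 and 149.9 CPM in H1944 and 22.9 and 21.2 in H647 (2.80 ± 0.06), OAS3 at 178 and 179 CPM in H1944 and 34.6 and 33.9 in H647 (2.38 ± 0.04, centred 1.93) and OASL at 55.7 and 54.4 CPM in H1944 and 6.56 and 6.72 in H647 (3.05 ± 0.08). After centring on GC content, 2 of the list were past 4-fold in H1944.

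Few DNA sensing genes were past 4-fold in either line. Of 16 genes, 10 were called higher in H647 and 5 in H1944, against 43.2% and 45.1% of all genes. In H647 2 (12.5%) were past 4-fold and in H1944 1 (6.25%), against 11.9% and 14.0% of all genes. The median was -0.46. cGAS (CGAS) was at 18.5 and 20.4 CPM in H1944 and 30.4 and 30.5 in H647 (-0.64 ± 0.08) and its partner STING1 at 16.4 and 15.5 CPM in H1944 and 33.7 and 31.8 in H647 (-1.04 ± 0.08). The nuclear DNA sensor IFI16 was at 112 and 109 CPM in H1944 and 269 and 257 in H647 (-1.25 ± 0.03, centred -0.55). AIM2, the inflammasome sensor of DNA, had 0 counts in H1944 and 169 and 120 in H647, at least 211-fold higher. ENPP1, which degrades the messenger made by cGAS, was at 1.11 and 0.474 CPM in H1944 and 63.7 and 64.4 in H647 (-6.33 ± 0.14). The exonuclease TREX1 was low in both lines, at 2.57 and 2.40 CPM in H1944 and 3.34 and 3.75 in H647 (-0.51 ± 0.22, edgeR adjusted p = 0.041), and the call was lost without replicate 2 of H1944 (edgeR adjusted p = 0.060) and without replicate 1 or 2 of H647 (0.092 and 0.22). The member past 4-fold in H1944 was TLR9, with 17 and 18 counts in H1944 and 1 and 2 in H647. Its difference was 1.87, under 4-fold, without replicate 1 of H647 and 2.98 without replicate 2. The TLR9 call was lost with DESeq2 (Wald test, adjusted p = 0.081). It was also lost after centring on GC content (1.51, t test with the SE of the main fit, adjusted p = 0.075). After that centring 0 of the 16 genes were past 4-fold in H1944.

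The kinases and factors downstream were within 4-fold except for 4 of 31 (12.9%), all higher in H1944 and 2 of 31 after centring on GC content. TBK1 was at 75.7 and 78.3 CPM in H1944 and 49.7 and 51.5 in H647 (0.61 ± 0.05, centred 1.20). IRF3 was at 65.2 and 67.2 CPM in H1944 and 26.1 and 25.4 in H647 (1.36 ± 0.06, centred 0.61). IRF7, the factor that amplifies interferon, was at 24.5 and 27.4 CPM in H1944 and 5.003 and 5.75 in H647 (2.28 ± 0.11, centred 0.84), and the interferon gamma receptor chain IFNGR1 at 173 and 173 CPM in H1944 and 31.8 and 32.4 in H647 (2.43 ± 0.04). IFNLR1, the receptor for interferon lambda, was at 3.35 and 3.18 CPM in H1944 and had 5 and 2 counts in H647. USP18, which removes ISG15 from proteins, was at 12.7 and 11.4 CPM in H1944 and 3.05 and 2.84 in H647 (centred 1.83).

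**Figure D5:**
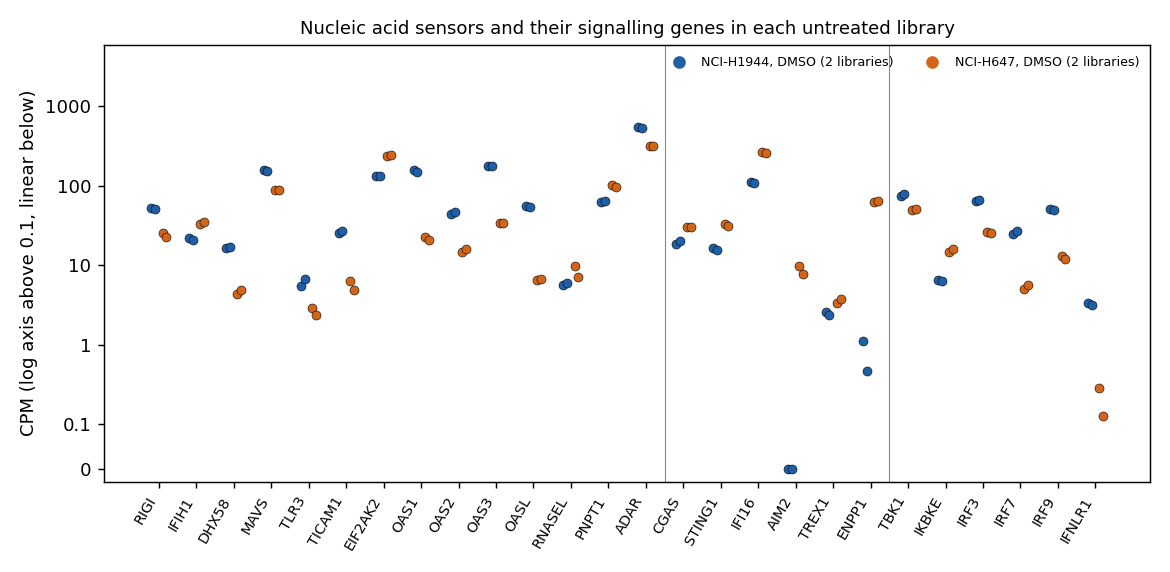
CPM in each untreated library (y, log axis above 0.1 and linear below) of RNA sensing genes (left block), DNA sensing genes (middle block) and signalling genes (right block). Each dot is 1 library, blue for H1944 and orange for H647. OAS1, OAS3, OASL and IRF7 lie higher in H1944, AIM2 and ENPP1 lie higher in H647, and AIM2 is at 0 in H1944.

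Interferon-stimulated genes did not move as 1 block. Of 47 tested, 8 (17.0%) were past 4-fold in H1944 and 7 (14.9%) in H647, shares near those of all genes, with a median of 0.35. ISG15, a ubiquitin-like modifier, was at 221 and 214 CPM in H1944 and 7.99 and 8.27 in H647 (4.74 ± 0.06, 26.8-fold). IFI27 was at 139 and 149 CPM in H1944 and 2.82 and 4.13 in H647 (5.38 ± 0.09) and IFI6 at 186 and 186 CPM in H1944 and 28.5 and 28.1 in H647. RSAD2 (viperin), an antiviral enzyme, had 105 and 121 counts in H1944 and 1 and 1 in H647, a ratio of 51.6 (95% counting interval 14.1 to 429). IFIT1, which binds foreign RNA caps, was at 44.03 and 44.6 CPM in H1944 and 18.3 and 18.7 in H647 (1.26 ± 0.07) and the GTPase MX1 at 61.1 and 59.5 CPM in H1944 and 33.01 and 34.2 in H647 (0.84 ± 0.06). MX2, the relative of MX1, was higher in H647, at 0.886 and 0.977 CPM in H1944 and 21.3 and 22.9 in H647 (-4.56 ± 0.16), as were the guanylate-binding GTPases GBP1, at 2.30 and 2.32 CPM in H1944 and 50.8 and 47.1 in H647, and GBP2, at 4.79 and 3.74 CPM in H1944 and 85.7 and 95.1 in H647, and the ISG15 ligase HERC5, at 3.49 and 3.38 CPM in H1944 and 28.1 and 30.3 in H647. MX1 and MX2, neighbours on chromosome 21, thus differed in opposite directions. In the inhibitor-treated libraries of the lines, 16 members were past 4-fold in H1944 and 2 in H647. Over all 13830 genes tested in those libraries, 1801 were past 4-fold in H1944 and 1493 in H647.

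Antigen presentation genes were also close to the background, with 4 of 36 (11.1%) past 4-fold in each line and a median of 0.14. Class I chains, whose counts are uncertain between near-identical genes and alleles, gave higher values in H1944. HLA-B was at 56.1 and 58.2 CPM in H1944 and 32.1 and 30.9 in H647 (0.86, centred 0.14). HLA-C was at 501.04 and 510.2 CPM in H1944 and 144 and 142 in H647 (1.82, centred 0.90). Their partner B2M was at 427 and 407 CPM in H1944 and 572 and 543 in H647 (-0.42 ± 0.03), which turns to 0.11 after centring on GC content. The peptide transporter TAP1 was at 74.4 and 72.1 CPM in H1944 and 11.3 and 13.3 in H647 (2.58 ± 0.07, centred 1.87), and HLA-F at 20.2 and 20.3 CPM in H1944 and 0.230 and 0.581 in H647. The NKG2D ligand ULBP1, which marks stressed cells for killer lymphocytes, was at 16.3 and 16.2 CPM in H1944 and 0.978 and 0.646 in H647. PD-L1 (CD274) was higher in H647, at 1.22 and 0.949 CPM in H1944 and 18.4 and 18.3 in H647, 16.9-fold, and its relative PD-L2 (PDCD1LG2) had 13 and 0 counts in H1944 and 147 and 138 in H647. CD74, the class II chaperone, was at 0.443 and 0.140 CPM in H1944 and 11.3 and 10.8 in H647, and the class II activator CIITA had 6 and 22 counts in H1944 and 58 and 45 in H647.

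Mitotic genes were lower in H1944 with few exceptions. All 45 were tested, and 41 were called higher in H647 and 3 in H1944, against 43.2% and 45.1% of all genes. Of the 45, 17 (37.8%) were past 4-fold in H647 and 0 in H1944, with a median of -1.71 (-1.52 after centring on GC content). TTK, which encodes the kinase MPS1 that the study's drug inhibits, was at 21.2 and 20.96 CPM in H1944 and 201 and 205 in H647, 9.61-fold higher in H647 (-3.27 ± 0.04, edgeR adjusted p = 4.5e-21). The proliferation marker MKI67 was at 132 and 134 CPM in H1944 and 1036 and 1056 in H647 (-2.97 ± 0.03), the cytokinesis scaffold anillin (ANLN) at 51.4 and 52.4 CPM in H1944 and 675 and 691 in H647 (-3.72 ± 0.03), and the kinetochore protein CENPF at 78.6 and 79.5 CPM in H1944 and 838 and 851 in H647 (-3.42 ± 0.03). TOP2A, the topoisomerase of dividing cells, was at 244 and 241 CPM in H1944 and 1411 and 1447 in H647 (centred -1.96) and cyclin B1 (CCNB1) at 78.4 and 78.3 CPM in H1944 and 294 and 276 in H647 (-1.86 ± 0.04). CDK1 differed least of those named, at 101 and 99.8 CPM in H1944 and 141 and 138 in H647 (-0.47 ± 0.04), and its sign turns after centring on GC content (0.22). The list's GC content is low, with a median of 43.2%.

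Among 18 tested regulators of G1, 2 were past 4-fold in each line. CDK6 was at 61.8 and 65.2 CPM in H1944 and 469.9 and 481 in H647 (-2.90 ± 0.03) and cyclin E2 (CCNE2) at 2.96 and 2.99 CPM in H1944 and 26.4 and 30.8 in H647 (-3.26 ± 0.12), both higher in H647. Cyclin D3 (CCND3) was higher in H1944, at 531 and 524 CPM in H1944 and 96.7 and 99.4 in H647 (2.43 ± 0.03, centred 1.72). CDKN2A and CDKN2B, the inhibitors of CDK4 and CDK6 on chromosome 9, had 0 counts in all 4 libraries. Their neighbour MTAP, an enzyme of methionine salvage, had 1987 and 2037 counts in H1944 and 0 in both H647 libraries, at least 613-fold higher in H1944.

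Genes listed as NRF2 targets, several of which make and use glutathione and NADPH, were more often called higher in H1944 than in H647. Of 42 tested, 30 were called higher in H1944 and 10 in H647, against 45.1% and 43.2% of all genes. Of the 42, 13 (31.0%) were past 4-fold in H1944 and 0 in H647 (10 and 2 after centring on GC content), with a median of 1.02. The amino acid transporter SLC7A5 was at 4919.7 and 4961 CPM in H1944 and 115 and 122 in H647 (5.38 ± 0.03), heme oxygenase (HMOX1) at 196 and 195 CPM in H1944 and 7.53 and 7.30 in H647 (4.72 ± 0.06) and the feedback gene OSGIN1 at 224 and 231 CPM in H1944 and 18.9 and 18.4 in H647 (3.60 ± 0.05). NQO1, a quinone reductase, was at 2205 and 2209 CPM in H1944 and 1236 and 1221 in H647 (0.84 ± 0.02) and thioredoxin reductase (TXNRD1) at 6616 and 6575 CPM in H1944 and 3236 and 3290.1 in H647 (1.02 ± 0.02). AKR1C2 and AKR1B10, aldo-keto reductases with near-identical relatives and so uncertain counts, were at 4490.5 and 4361 CPM in H1944 and 269.8 and 243 in H647 and at 690.5 and 687 CPM in H1944 and 211 and 192 in H647. The cystine transporter SLC7A11 was higher in H647, at 1167 and 1146 CPM in H1944 and 1634 and 1650.3 in H647 (-0.51 ± 0.02), with the sign turning after centring on GC content (0.13). GPX2, a glutathione peroxidase, had 3076 and 3326 counts in H1944 and 0 in H647, but overlaps another gene. NFE2L2, the gene of NRF2, was at 274 and 270.4 CPM in H1944 and 131 and 137 in H647 (1.03 ± 0.03, centred 1.25). KEAP1, the repressor of NRF2, was at 113 and 115 CPM in H1944 and 51.6 and 52.9 in H647 (1.13 ± 0.04, centred 0.32).

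Genes tied to loss of the kinase LKB1 and to CREB signalling split by gene. Of 27, 6 (22.2%) were past 4-fold in H1944 and 1 (3.70%) in H647, with a median of 0.31. STK11, the gene of LKB1, was at 53.99 and 54.7 CPM in H1944 and 7.59 and 6.59 in H647 (2.93 ± 0.08), and its difference after centring on GC content was 1.51, under 4-fold. CPS1, the urea-cycle enzyme known from LKB1-deficient lung cancer, was at 3075 and 3011 CPM in H1944 and 28.1 and 28.7 in H647 (6.74 ± 0.04, 107-fold). PDK4, a brake on pyruvate oxidation, was at 232 and 228 CPM in H1944 and 2.65 and 2.52 in H647 (6.47 ± 0.07), the orphan receptor NR4A1 at 175 and 182 CPM in H1944 and 3.11 and 2.97 in H647 (5.87 ± 0.07) and the salt-inducible kinase SIK1 at 388 and 391 CPM in H1944 and 24.7 and 20.8 in H647 (4.09 ± 0.05). PDE4B, which degrades cyclic AMP, was the member past 4-fold in H647, at 19.6 and 18.03 CPM in H1944 and 139 and 133 in H647 (-2.86 ± 0.05).

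Metabolic and secreted genes gave some of the widest gaps. Of 24 tested xenobiotic and hormone-metabolising genes, 9 (37.5%) were past 4-fold in H1944 and 6 in H647. CYP24A1, which inactivates vitamin D, was at 2396 and 2417 CPM in H1944 and 1.84 and 2.39 in H647 (10.16 ± 0.05). CYP1A1, the classical target of the aryl hydrocarbon receptor, and the glutathione transferase GSTM1 had 0 counts in H647 and 362 and 353 and 819 and 860 in H1944. GSTM1 overlaps GSTM2, so its counts are uncertain. ALDH1A3, an enzyme of retinoic acid synthesis, was higher in H647, at 0.443 and 0.140 CPM in H1944 and 13.4 and 14.2 in H647. In the list of secreted genes of senescent cells, 10 of 24 (41.7%) were past 4-fold in H1944 and 4 (16.7%) in H647. The insulin-like growth factor binding proteins split within it: IGFBP3 was at 1711 and 1674 CPM in H1944 and 46.8 and 45.8 in H647 and IGFBP2 at 31.00 and 32.1 CPM in H1944 and 0.403 and 0.646 in H647, while IGFBP5 had 0 counts in H1944 and 526 and 445 in H647 and IGFBP7 was at 57.98 and 64.3 CPM in H1944 and 346 and 350.4 in H647. Lamin B1 (LMNB1), which senescent cells lose, was at 44.3 and 47.3 CPM in H1944 and 254 and 245 in H647, and MMP9 had 0 counts in H1944 and 34 and 29 in H647. In the hypoxia and glycolysis list, 2 of 32 (6.25%) were past 4-fold in H1944 and 4 (12.5%) in H647. The glucose transporter SLC2A1 was at 1369.8 and 1399 CPM in H1944 and 227 and 226 in H647 and the carbonic anhydrase CA12 at 992 and 967 CPM in H1944 and 61.7 and 65.9 in H647, while hexokinase 2 (HK2) was at 3.49 and 2.20 CPM in H1944 and 86.3 and 89.1 in H647. The carbonic anhydrase CA9 had 0 counts in H1944 and 41 and 37 in H647, the aldolase ALDOC was at 5.48 and 4.27 CPM in H1944 and 44.3 and 39.4 in H647 and the kinase PDK1 at 9.13 and 10.7 CPM in H1944 and 50.6 and 46.7 in H647 (PDK1 centred -1.79).

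Growth-factor receptors and their ligands were more often far apart than the outputs of RAS. Of 37 tested, 12 (32.4%) were past 4-fold in H1944 and 5 (13.5%) in H647, against 2 in each line of 23 RAS and MAPK output genes. This difference in shares was not tested. ERBB3, the neuregulin receptor, was at 89.7 and 92.6 CPM in H1944 and 1.15 and 1.03 in H647 (6.37 ± 0.11), and MST1R, the receptor of macrophage-stimulating protein, at 20.2 and 18.5 CPM in H1944 and 0.978 and 0.904 in H647 (4.35 ± 0.17). The proto-oncogene receptor ROS1 was at 0.609 and 0.530 CPM in H1944 and 12.9 and 11.6 in H647 (-4.42 ± 0.21). AXL, a receptor known from mesenchymal and drug-resistant lung cancer cells, was higher in H647, at 85.2 and 84.7 CPM in H1944 and 487 and 503 in H647 (-2.54 ± 0.03). EGFR was at 62.1 and 59.02 CPM in H1944 and 81.3 and 81.7 in H647 (-0.43 ± 0.05), with the sign turning after centring on exonic length (0.04). The growth-promoting factor MYC was at 157 and 161 CPM in H1944 and 199.9 and 195 in H647 (-0.31 ± 0.03). The ETS factor ETV4 and the phosphatase DUSP5 were higher in H1944, at 87.6 and 88.1 CPM in H1944 and 9.66 and 9.69 in H647 and at 317 and 318 CPM in H1944 and 60.4 and 53.98 in H647 (DUSP5 centred 1.82). The immediate-early factor EGR1 and the feedback inhibitor SPRY1 were higher in H647, at 1.11 and 1.40 CPM in H1944 and 21.8 and 21.9 in H647 and at 2.96 and 3.40 CPM in H1944 and 30.8 and 30.6 in H647.

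Genes of TGF-beta, WNT, Notch and Hippo signalling were past 4-fold in both directions. Of 42 tested, 7 (16.7%) were past 4-fold in H1944 and 8 (19.0%) in H647, against 14.0% and 11.9% of all genes, with a median of -0.03. The ligand WNT7B was at 144 and 138 CPM in H1944 and 4.60 and 4.07 in H647 (5.02 ± 0.08), the feedback gene AXIN2 at 67.03 and 62.6 CPM in H1944 and 2.07 and 3.62 in H647 (4.53 ± 0.12), and RNF43, a ligase that removes WNT receptors, had 1033 and 1012 counts in H1944 and 0 and 2 in H647. Within the WNT genes, the ligand WNT5A was higher in H647, at 39.8 and 42.8 CPM in H1944 and 326 and 322 in H647 (-2.97 ± 0.04). The TGF-beta family ligands also went both ways. BMP7 had 422 and 485 counts in H1944 and 0 in H647, at least 138-fold higher in H1944. TGFB2 was at 3.99 and 3.85 CPM in H1944 and 977 and 997 in H647, 251-fold higher in H647 (-7.97 ± 0.05), and INHBA, the activin A subunit, had 0 counts in H1944 and 134 and 82 in H647. The targets of YAP and its partner TEAD gave CCN1 at 12.1 and 12.98 CPM in H1944 and 851 and 822 in H647 (-6.06 ± 0.04), CCN2 at 6.61 and 6.45 CPM in H1944 and 202 and 202 in H647 (-4.95 ± 0.05) and ANKRD1 with 7 and 0 counts in H1944 and 1152 and 1081 in H647. Promoters are shown because the 3 genes are textbook TEAD targets and were higher in H647. CCN2 and ANKRD1 were matched in the RefSeq table, and CCN1 was not. Each line holds the 250 bases before the RefSeq start site (GRCh38.p14), 5′ to 3′, with the TEAD letters GGAATG in capitals. Both strands were searched (CATTCC on the other).
CCN2, chr6:131951373-131951622, minus strand: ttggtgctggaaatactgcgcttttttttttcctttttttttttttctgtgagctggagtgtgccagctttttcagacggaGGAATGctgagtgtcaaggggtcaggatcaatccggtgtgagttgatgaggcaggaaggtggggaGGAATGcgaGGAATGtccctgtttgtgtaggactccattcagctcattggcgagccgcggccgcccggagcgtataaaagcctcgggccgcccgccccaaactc
ANKRD1, chr10:90921088-90921337, minus strand: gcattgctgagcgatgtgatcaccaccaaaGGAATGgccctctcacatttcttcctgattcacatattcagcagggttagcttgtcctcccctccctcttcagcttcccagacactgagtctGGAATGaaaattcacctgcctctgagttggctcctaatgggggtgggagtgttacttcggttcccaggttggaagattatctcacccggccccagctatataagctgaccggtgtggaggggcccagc
CCN2 holds the letters 3 times and ANKRD1 holds them 2 times, against at least 1 match in 9.54% of 11104 genes over the same 250 bases.

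Adhesion and matrix genes followed both patterns. Of 35 integrin, laminin and collagen genes, 7 were past 4-fold in H1944 and 10 (28.6%) in H647. The hemidesmosome integrin ITGB4 was at 896 and 927 CPM in H1944 and 27.6 and 27.1 in H647 (5.06 ± 0.04). ITGA4, the integrin that binds VCAM1 and fibronectin, was at 0.277 and 0.140 CPM in H1944 and 35.1 and 32.6 in H647 (-7.31 ± 0.19), and the collagens COL12A1 and COL4A6 were at 26.8 and 25.5 CPM in H1944 and 864 and 844 in H647 and at 0.498 and 0.335 CPM in H1944 and 96.8 and 98.3 in H647. Cancer-testis antigens are germline genes that tumours can switch on. Of 41 listed, 1 was not in both tables and 16 did not pass the filter. Members at 0 in one line passed it only through the other line, so the shares past 4-fold are partly set by the filter. Of 24 tested, 15 (62.5%) were past 4-fold in H1944 and 4 (16.7%) in H647, and 9 were at 0 counts in a line. CTAG2 and MAGEA10 had 804 and 890 and 505 and 539 counts in H1944 and 0 in H647, while PAGE5 had 0 counts in H1944 and 1356 and 1249 in H647. These families hold near-identical copies, so single members are uncertain.

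Of 20 leukocyte and blood genes, markers of other cells, 15 did not pass the filter. Of the 5 tested, 3 (60%) were past 4-fold in H1944, ITGAM among them, and 1 (20%) in H647, with a median of 3.99. PTPRC (CD45) had 0 counts in H1944 and 8 and 4 in H647, CD3E at most 2 counts in any library, and HBB 0 in all 4. The summed level of all 20 members, tested or not, was 4.954 and 5.9997 CPM in H1944 and 2.42 and 2.32 CPM in H647. Among 18 stroma and endothelium genes, 11 were tested, 3 past 4-fold in H1944 and 4 in H647. All 18, tested or not, summed to 52.1 and 48.2 CPM in H1944 and 75.4 and 82.7 CPM in H647. The endothelial genes CDH5 and TIE1 had 0 counts in H1944 and 524 and 483 and 174 and 149 in H647 (30.1 and 31.2 CPM for CDH5), while VWF had 0 counts in H1944 and 3 in each H647 library and COL3A1 at most 2 in any. The part of such markers in the differences above was not tested. Ribosomal protein genes, a check on kit and scaling, had a median of -0.31, with 1 of 82 (RPL37A, 706 and 718 CPM in H1944 and 3469.9 and 3172 in H647, centred -1.99) past 4-fold in H647 and 0 in H1944 (28 were called higher in H1944 and 52 in H647 at any size).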

How the data were processed

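RNA was measured by sequencing in the 8 libraries of the series, of which the 4 DMSO libraries are compared here. The authors deposited whole-number raw read counts for each gene, with 1 table for each line. Per the labels' protocols, the libraries of the lines were made with different stranded kits. The submitters' processing notes name the trimmers cutadapt, Trimmomatic and Trim Galore, the aligners HISAT2 and STAR, the counters StringTie and featureCounts, and GRCh38 as the build. Tool versions, annotation releases, the strand setting and which tool made which table: not given in the sources used here. Antisense partners, overlapping genes and near-identical copies are therefore uncertain.

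Libraries were grouped by the line and treatment in their titles. Protein-coding symbols in both tables were joined (19067), 91 histone genes were left out, and where a symbol had several entries the one with the highest count was used. A further 605 symbols were in the H1944 table only and 911 in the H647 table only. The joined symbols held 94.3% of protein-coding counts in H1944 and 99.7% in H647. The low-count filter was filterByExpr of edgeR 4.0.16 (R 4.3.3, minimum count 10, minimum total 15). Libraries were scaled by TMM and compared by the quasi-likelihood F test, with Benjamini-Hochberg adjusted p-values over all 13617 genes. The SE is the log2 difference over the root of F. The biological coefficient of variation was 2.74%. On simulated counts for 13402 genes, edgeR's test recovered 86% of genes changed 1.5-fold, 92% of those changed 2-fold and 100% of those changed 4-fold, and called 5 unchanged genes. The simulation changed 200 genes, up and down in equal number, with the same variation for all genes and no kit, GC or length effect. It therefore gives no error rate for the real comparison, in which 88.2% of genes were called.

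Members and the 31 gene lists were chosen with earlier results of these data known, so list counts are descriptions beside the shares over all genes, with no test of a list. The genes named are the 4 markers, a set of lineage, sensing and signalling genes whatever their outcome, in each list the largest differences past 4-fold (at most 6, with a mean of 1 CPM or more), and the 15 genes furthest apart in each direction. Other genes given with values were chosen after their values were seen. Mitochondrially encoded genes were not analysed here, and some genes that the naming rule covers are not reported here. RIGI is listed as DDX58. Alternatives covered scaling, filters, DESeq2 1.42.0, limma 3.58.1, other sets of libraries and, added after seeing the data, centring on exonic length and on GC content (GENCODE v29, 18948 of 18976 genes with a value, running median over 501 genes). Adjusted p-values of centred differences come from a t test with the SE of the main fit.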

Additional observations from a re-analysis of the deposited data

Results flagged for a closer look

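The inhibitor-treated libraries of the lines lie outside the comparison reported here. With a fit over all 8 libraries, the line difference itself was compared between treated and untreated libraries by the interaction term (edgeR's quasi-likelihood test, Benjamini-Hochberg adjusted over 14103 genes). It passed at 0.05 for 4969 of those 14103 genes, and for 119 of the 229 genes given with values. For 4 of these genes the line difference was called in opposite directions. KRT7 went from -0.29 untreated to 0.50 treated, a change of 0.79 (edgeR adjusted p = 3.32e-12). IFIH1, the gene of MDA5, went from -0.65 to 0.28, a change of 0.94 (edgeR adjusted p = 4.51e-10). TREX1 went from -0.51 to 1.74, a change of 2.25 (edgeR adjusted p = 2.54e-07). B2M went from -0.42 to 0.22, a change of 0.64 (edgeR adjusted p = 6.13e-11). Over all genes called in both fits, 239 had opposite directions.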

How the results depend on the processing

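The counts of 6136 and 5881 genes called higher in H1944 and in H647, and of 1909 and 1614 past 4-fold, stayed within 1.5 times of these values under every alternative run, with 3 exceptions. A test against a 2-fold minimum (glmTreat) called 3155 and 2965 genes. A filter of 100 counts left 1032 genes past 4-fold in H647, with 11595 genes tested. Leaving out 1 library in turn gave 5881 to 6122 and 5548 to 5891 genes called, and 1878 to 1979 and 1496 to 1627 past 4-fold. Centring on GC content gave 1560 and 1595 past 4-fold. With the replicate number as a block the calls were 6098 and 5847. The numbers only name the libraries: deviations of same-numbered libraries in the 2 lines correlated at r = -0.014.

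For the 229 genes given with values, 4276 of 4326 alternative values kept direction and side of the threshold, 35 lost the call and 15 changed sign. TP63, called in none of the fits named here, changed sign with library totals (0.032), upper-quartile factors (0.063), centring on length (0.0067) or GC content (0.30), and without H1944 replicate 1 (0.080) or H647 replicate 2 (0.13), in a range of -0.20 to 0.13 over the libraries left out. In the treated libraries KRT7 was at 0.50, IFIH1 at 0.28, TREX1 at 1.74, IFI16 at 0.034 and B2M at 0.22. After centring on GC content B2M was at 0.11, CDK1 at 0.22 and SLC7A11 at 0.13, and after centring on length EGFR was at 0.035. The causes were not tested. SMARCA2 lost its call after centring on length (-0.069, t test with the SE of the main fit, adjusted p = 0.17). TREX1 also lost its call with the replicate block (edgeR adjusted p = 0.084). Of the losses, 22 were under the test against a 2-fold minimum. Of 1178 list counts, 1135 stayed within 1.5 times.

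The H647 libraries hold fewer counts, so genes at a few counts are less precise there. Line, kit, sequencer and annotation change together, and no alternative separates them.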

Other observations

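A chromatin remodelling gene outside the lists also differed. SMARCA4, the ATPase of the SWI/SNF remodeller, was at 3.93 and 4.69 CPM in H1944 and 150.3 and 155 in H647, a difference of -5.15 ± 0.07 (edgeR adjusted p = 3.5e-21) and -6.01 after centring on GC content. Its paralog SMARCA2 was at 59.7 and 56.95 CPM in H1944 and 92.1 and 96.9 in H647 (-0.69 ± 0.05). The SMARCA2 call was lost after centring on exonic length (-0.069, t test with the SE of the main fit, adjusted p = 0.17). These genes were picked with their values known.

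The line difference also varied along the genome. Neither the medians nor the runs of genes below were centred on GC content, with which the difference also moved. Position and GC content therefore cannot be told apart in them. Chromosome medians ran from -0.56 on chromosome 2 (917 genes) to 0.80 on chromosome 16 (628 genes). On chromosome 16, 19.9% of genes were past 4-fold in H1944 and 4.46% in H647, and on chromosome 2, 9.60% and 18.4%. In runs of 25 neighbouring genes, the highest median was 3.21, from TBC1D3B to TBC1D3 on chromosome 17, where many entries are near-identical TBC1D3 copies. The lowest was -2.79, from CCDC148 to GALNT3 on chromosome 2, with 14 genes past 4-fold in H647 and 1 in H1944.

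The gap in all 4 markers was smaller in the inhibitor-treated libraries. CDKN1A differed by 5.96 untreated and 3.78 treated (interaction, edgeR adjusted p = 1.29e-16), and GDF15 by 8.35 and 5.81 (edgeR adjusted p = 4.98e-12). LCN2 differed by 9.17 and 3.74 (edgeR adjusted p = 2.37e-07) and IL7R by -13.85 and -7.02 (edgeR adjusted p = 1.40e-06). Untreated, these last differences rest on counts of 0 or 1 in the lower line, so their sizes are uncertain.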
